A study of Mus musculus with 30 samples.

Results

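The regions described here are the Menin peaks of vehicle-treated mouse leukaemia cells that sit where 2 or more genes begin or end. A Menin DMSO peak was taken when its summit lay within 1 kb of a start or end of at least 2 different protein-coding genes on chromosomes 1 to 19, by RefSeq annotation of mouse build GRCm38.p6. Of 10982 Menin DMSO peaks on these chromosomes, 1192 met this rule, 4978 lay near 1 gene and 4812 near none. The peaks were thus selected on their Menin DMSO signal, and their Menin values are given as a description. The 1192 peaks fell on 1104 sets of genes and touched 2165 genes; 1168 lay near 2 genes and 24 near 3.

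The cells were WT-MA9, mouse acute myeloid leukaemia cells with a stable retroviral MLL-AF9-GFP transgene, which all 4 libraries share. Chromatin immunoprecipitation and sequencing of Menin and of UTX was done in cells given MI-503, an inhibitor of the contact between Menin and MLL, and in cells given DMSO, its vehicle, with harvest 4 days after treatment. The labels give no dose of MI-503. Each antibody and treatment had 1 library, so no difference between MI-503 and DMSO has a replicate check, and the other 26 of the 30 labelled libraries were not analysed here. The MI-503 list of Menin held 8 peaks against 11195 in DMSO, and the UTX list held 14231 peaks in MI-503 against 217 in DMSO. Total depth is unknown. By the step between recovered pileups, the library of Menin in MI-503 was at least 1.35 times as deep as that in DMSO, a value resting on 4 of the 8 peaks, and for UTX the library in MI-503 was the shallower, with the one in DMSO at least 1.14 times as deep.

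Menin, the product of Men1, is a scaffold protein that brings the MLL1 and MLL2 histone H3 lysine 4 methyltransferases to promoters and is needed by MLL fusion proteins in leukaemia. UTX, the product of Kdm6a, removes methyl groups from histone H3 lysine 27 and belongs to the MLL3 and MLL4 complexes. Mammalian genes often lie head to head, so that a single stretch of DNA, usually a CpG island, serves as promoter for transcription in both directions. Many housekeeping genes for DNA repair, mitochondria and translation are arranged this way. The CCAAT box, bound by the trimeric factor NF-Y, is a frequent element of such bidirectional promoters.

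The DNA between the starts of 8 head-to-head pairs is given as examples, chosen after their values were seen. They come from the named pairs with the summit between starts under 250 bp apart: the highest Menin peak among them by −log10 q (G3bp2/Uso1), the highest UTX MI-503 fold (Fbh1/Ankrd16), the 3 pairs with UTX in MI-503 and in DMSO (Mrps12/Sars2, Cdr2/Mfsd13b, Trappc11/Rwdd4a), the 1 with no UTX MI-503 peak (Atp6v1a/Naa50), and 2 of 3 pairs of histone genes. Sequences come from RefSeq promoters of GRCm38.p6, run 5′ to 3′ in the direction of the gene named as read, and leave out both genes. Capitals mark CCAAT or its reverse ATTGG, the TATA motif TATAAA or its reverse TTTATA, and the GC box GGGCGGG or its reverse CCCGCCC.
G3bp2/Uso1, chr5:92137726-92137908, minus strand, read towards G3bp2: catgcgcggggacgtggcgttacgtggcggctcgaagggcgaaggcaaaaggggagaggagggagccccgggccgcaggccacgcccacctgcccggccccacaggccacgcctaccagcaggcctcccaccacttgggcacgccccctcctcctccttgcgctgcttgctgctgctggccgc
Fbh1/Ankrd16, chr2:11777586-11777752, plus strand, read towards Ankrd16: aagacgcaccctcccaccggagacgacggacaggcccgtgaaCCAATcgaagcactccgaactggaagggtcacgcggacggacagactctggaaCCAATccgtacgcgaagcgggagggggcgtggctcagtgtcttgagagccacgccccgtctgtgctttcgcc
Mrps12/Sars2, chr7:28741822-28741956, minus strand, read towards Mrps12: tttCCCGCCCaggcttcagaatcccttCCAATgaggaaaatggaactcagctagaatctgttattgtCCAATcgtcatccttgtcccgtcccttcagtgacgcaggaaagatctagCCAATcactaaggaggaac
Cdr2/Mfsd13b, chr7:120982313-120982441, minus strand, read towards Cdr2: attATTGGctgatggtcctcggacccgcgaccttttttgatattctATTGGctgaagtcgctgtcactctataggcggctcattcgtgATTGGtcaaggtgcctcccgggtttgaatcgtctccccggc
Trappc11/Rwdd4a, chr8:47533471-47533644, plus strand, read towards Rwdd4a: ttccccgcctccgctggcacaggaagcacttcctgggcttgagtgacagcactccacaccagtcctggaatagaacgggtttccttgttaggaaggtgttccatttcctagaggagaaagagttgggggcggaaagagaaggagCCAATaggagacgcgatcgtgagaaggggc
Atp6v1a/Naa50, chr16:44139703-44139790, plus strand, read towards Naa50: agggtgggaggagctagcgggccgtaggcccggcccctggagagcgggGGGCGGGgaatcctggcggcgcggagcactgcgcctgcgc
H2ac22/H2bc22, chr13:21787249-21787482, minus strand, read towards H2ac22: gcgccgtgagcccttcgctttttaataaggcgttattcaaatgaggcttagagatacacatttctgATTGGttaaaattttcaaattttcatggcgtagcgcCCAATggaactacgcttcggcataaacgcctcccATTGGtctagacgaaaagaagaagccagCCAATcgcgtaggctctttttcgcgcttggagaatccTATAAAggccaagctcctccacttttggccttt
H2bc7/H2ac7, chr13:23574208-23574380, plus strand, read towards H2ac7: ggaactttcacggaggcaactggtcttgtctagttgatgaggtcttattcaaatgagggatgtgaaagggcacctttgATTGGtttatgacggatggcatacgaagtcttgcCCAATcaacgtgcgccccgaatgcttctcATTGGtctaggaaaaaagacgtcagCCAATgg
Counted from the first base printed, the Menin summit fell on base 105 at G3bp2/Uso1, 72 at Fbh1/Ankrd16, 87 at Mrps12/Sars2, 22 at Cdr2/Mfsd13b, 67 at Trappc11/Rwdd4a, 44 at Atp6v1a/Naa50, 145 at H2ac22/H2bc22 and 101 at H2bc7/H2ac7. The stretches at H2ac22/H2bc22 and H2bc7/H2ac7 held 4 CCAAT matches each, those at Mrps12/Sars2 and Cdr2/Mfsd13b held 3 each, that at Fbh1/Ankrd16 held 2 and that at Trappc11/Rwdd4a held 1. The stretches at G3bp2/Uso1 and Atp6v1a/Naa50 held 0, and had 16 and 10 CG dinucleotides.

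UTX was found in MI-503 at most of these Menin sites. Of the 1192 peaks, 1090 (91.4%, exact Clopper-Pearson 95% interval 89.7 to 93.0) shared at least 1 bp with a UTX MI-503 peak, against 4283 of 4978 peaks near 1 gene (86.0%, 85.0 to 87.0); the share over all Menin DMSO peaks was 66.5%. The difference was 5.40 percentage points (Newcombe 95% interval 3.44 to 7.17), and 1.53 points (−1.37 to 4.32) when 50% of both peaks had to be shared. Neighbouring peaks are not independent and each list is 1 library, so all intervals here reflect counting error alone. In DMSO, 29 of the 1192 (2.43%, 1.64 to 3.48) were overlapped by UTX, against 110 near 1 gene (2.21%, 1.82 to 2.66) and 1.69% of all Menin peaks. That difference was 0.22 points (−0.64 to 1.33), so the UTX DMSO share was not distinguishable between the classes at this list length. In the Menin MI-503 list, 1 of the 1192 was still overlapped, at Plag1/Chchd7, against 0 of 4978 near 1 gene and 0.00911% of all Menin peaks.

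The paired sites were close to single-gene sites in Menin signal. The median fold enrichment (summit pileup plus 1 over local background plus 1, as deposited) was 7.09 at the 1192 peaks and 6.97 at peaks near 1 gene, and the median −log10 q, where q is the false discovery rate of the summit, was 17.7 and 16.9. Median summit pileups were 36 and 34 fragments, over local backgrounds of 4.08 and 3.60 fragments. The widths were 357.5 bp and 330 bp at the median. Where UTX MI-503 overlapped, its median fold was 12.0 at paired sites and 11.5 at single-gene sites.

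In percentage points, the difference in UTX overlap was widest among the weakest Menin peaks, and in the upper bins both shares were near 100%. All boundary peaks were split into 4 equal bins of Menin −log10 q. In the lowest bin, UTX MI-503 overlapped 78.9% of 266 paired peaks against 67.3% of 1277 peaks near 1 gene, a difference of 11.6 points (5.74 to 16.8). In the middle bins the shares were 89.7% against 86.3% and 96.0% against 93.8%, and both intervals of the difference included 0 (−0.89 to 6.95 and −0.84 to 4.42). In the highest bin they were 99.7% against 97.4%, a difference of 2.31 points (0.58 to 3.39). Splitting by peak width gave 10.4 points in the narrowest of 4 bins (4.44 to 15.7) and 1.21, 3.06 and 1.84 points in the others, whose intervals all included 0.

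Gene direction was known for all genes at 906 of the 1192 peaks. Among the 888 of these with 2 genes, 683 (76.9%) lay at 2 starts on opposite strands, 189 (21.3%) at the start of 1 gene and the end of another, 13 at 2 starts on the same strand and 3 at 2 ends. UTX MI-503 overlapped 93.3% of the opposite-strand starts (91.1 to 95.03), against 87.8% of 3944 Menin peaks near 1 start alone (86.7 to 88.8). At start-and-end sites the share was 87.3% (81.7 to 91.7), close to that of single starts. Peaks near 1 end alone were overlapped in 48.3% of 120 cases (39.1 to 57.6). In the lowest bin of Menin −log10 q, opposite-strand starts stood at 83.9% (77.0 to 89.4), against 71.0% at single starts (68.0 to 73.9).

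Counting from the genes gives the other view. In all, 3468 pairs of protein-coding genes had boundaries within 1 kb of each other, and 32.1% of them had a Menin DMSO summit within 1 kb of both, 37.1% a UTX MI-503 summit and 0.807% a UTX DMSO summit. Of 872 pairs with starts on opposite strands, 641 (73.5%, 70.4 to 76.4) had Menin in DMSO, against 29.4% of 11457 lone starts with no other gene boundary within 2 kb (28.6 to 30.3). The UTX MI-503 list, which took no part in choosing the paired peaks, gave 82.0% (79.3 to 84.5) against 34.6% (33.7 to 35.5). UTX DMSO gave 1.83% (1.05 to 2.96) against 0.777% (0.624 to 0.955). Start-and-end pairs had Menin in 33.1% and UTX MI-503 in 39.7% of 537 cases. Pairs of 2 ends had Menin in 5 of 751 cases (0.67%) and UTX MI-503 in 19 (2.53%), against 0.82% and 1.15% of 11235 lone ends. A pair is counted as a single unit though it has 2 starts, so its share and that of lone starts are not like measures per start. The part of the number of starts in the difference was not tested. Gene activity was not measured in these files, and its part in the difference between pairs and lone starts was not tested.

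Shares of occupied opposite-strand pairs were lowest where the starts lay farthest apart, where the stretch within 1 kb of both starts is also shortest. Menin was present at 78.4% of the 365 opposite-strand pairs with starts 0 to 100 bp apart, at 74.3% of the 276 at 101 to 300 bp (68.7 to 79.3) and at 64.9% of the 231 at 301 to 1000 bp (58.4 to 71.1). UTX MI-503 was present at 86.0%, 85.9% and 71.0% (64.7 to 76.8) of the same pairs. For Menin the intervals of the wider distances overlapped. Pairs whose genes overlapped had Menin in 68.4% of 307 cases, against 76.3% of the 565 whose genes lay apart, and UTX MI-503 in 77.9% against 84.2%.

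Base composition differs between paired and lone starts, so shares were also set side by side in bins of CG content, over the 300 bases around each start. A pair was binned by the mean count of its 2 promoters, so either of them can lie outside the bin. At under 10 CG dinucleotides, 26.4% of 53 opposite-strand pairs had Menin (15.3 to 40.3), against 5.20% of 4575 lone starts. At 10 to under 20 the shares were 67.7% and 35.5%, at 20 to under 30 they were 81.8% and 54.3%, and at 30 or more they were 78.9% and 47.4%. UTX MI-503 gave 32.1% against 6.49%, 78.5% against 44.4%, 90.5% against 62.3% and 85.0% against 53.1% in the same order. The pair shares were higher in every bin, and their intervals, of counting error alone, did not meet those of the lone starts. A pair is counted as a single unit though it has 2 starts, so these shares are not per start. The bins are wide, and the parts of CG content and of the number of starts in the difference were not tested.

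Motif matches were counted on both strands of the 300-base promoters. CCAAT was in 42.8% of 1258 promoters at Menin peaks with opposite-strand starts, against 44.6% of 3702 at Menin peaks near 1 start and 39.1% of all 16457. The ETS-family motif CCGGAAGT was in 15.2%, against 10.2% and 5.44%. The YY1 motif AAGATGGCG was in 5.64%, against 3.92% and 1.92%, and the GC box GGGCGGG in 49.8%, against 57.4% and 34.7%. TATAAA was rarer, in 3.97%, against 5.78% and 13.5%. The motif ACTACAA, bound by ZNF143, was in 5.64%, against 4.57% and 3.96%, the cyclic AMP response element TGACGTCA in 4.53%, against 4.75% and 2.40%, and the palindromic NRF1 motif in 3.10%, against 3.13% and 1.37%. In 462 promoters of opposite-strand pairs without a Menin peak, ACTACAA was at 6.71% and TATAAA at 9.52%, above the shares at opposite-strand Menin peaks. The other motifs were below those shares, with CCAAT at 36.1%, CCGGAAGT at 7.79% and AAGATGGCG at 3.03%. GGGCGGG was at 35.1%, TGACGTCA at 1.95% and the NRF1 motif at 0.866%. The median promoter held 25 CG dinucleotides at opposite-strand Menin sites, against 23 near 1 start and 14 over all promoters. In the 462 promoters of opposite-strand pairs without a Menin peak the median was 19, so motif shares there also differ in base composition.

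UTX MI-503 enrichment was higher at the median where a promoter held CCAAT, with Menin medians close together. At the 376 opposite-strand peaks with CCAAT in at least 1 of the 2 promoters, UTX MI-503 overlapped 94.4% (91.6 to 96.5) with a median fold of 13.7. At the 307 without it, the share was 91.9% (88.2 to 94.7) and the median fold 11.0. Menin medians were 7.41 and 7.25. Peaks near 1 start gave 91.8% and 13.5-fold with CCAAT, and 84.6% and 10.6-fold without.

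Summits at divergent starts lay close to a start. Of the 683 opposite-strand peaks, 453 had genes lying apart, with a median of 101 bp between the starts (quartiles 52 and 211). The Menin summit was 48 bp from the nearer start and 122 bp from the farther one at the median. At the 230 peaks whose genes overlapped, these medians were 66.5 bp and 309 bp. At Menin peaks near 1 start the median was 83 bp. The nearer of 2 starts is closer by construction, so 48 bp and 83 bp are not like measures. Where genes lay apart, the Menin summit was 60.5 bp from the midpoint between the starts at the median. The UTX MI-503 summit, present at 420, was 70.5 bp from it. Nearness to the midpoint is set in part by the rule and the short gaps. The Menin summit fell between the starts in 200 of 453 (44.2%) and outside them in 253 (55.8%). It fell between the starts in 49 of 75 (65.3%) where they were 300 bp or more apart. Where they were closer, it did so in 151 of 378 (39.9%), but a shorter gap also leaves less room for a summit. The summits of Menin and UTX MI-503 were 39 bp apart at the median over the 1090 shared paired sites, against 38 bp over shared single-gene sites. At start-and-end sites, 175 of 189 summits (92.6%) lay nearer the start, at a median of 81 bp from it and 425 bp from the end. Counting only peaks near the 2 genes of a pair and no other gene, at any distance between the starts, 629 opposite-strand pairs had a Menin peak; 578 had 1, 48 had 2 and 3 had 3. At 12 pairs peaks lay on both flanks.

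Single sites are given next; each had no peak in the Menin MI-503 or UTX DMSO lists unless one is given, and each fold is the authors' value for the overlapping peak. The highest by −log10 q was at Galns, a lysosomal sulfatase gene, and Trappc2l, a vesicle-tethering subunit (chr8:122611201-122611723), with 181 fragments over a background of 2.92, 46.4-fold. UTX MI-503 was 18.0-fold there. Tpmt, encoding thiopurine methyltransferase, and Kdm1b, a histone H3 lysine 4 demethylase, start 35 bp apart (chr13:47042970-47043744), and had 187 Menin fragments, 37.0-fold, and UTX MI-503 at 23.0-fold.
The peak at the start of Abtb1 and the end of Podxl2 (chr6:88841684-88842642) was 40.6-fold for Menin and 13.7-fold for UTX MI-503. S100pbp/Yars, with the tyrosyl-tRNA synthetase gene Yars, had 29.7-fold Menin and 12.1-fold UTX MI-503. G3bp2, a stress granule protein gene, and Uso1, a Golgi tether gene, had 29.0-fold and 23.5-fold. The 10 highest Menin peaks by −log10 q ran from 28.4-fold to 46.4-fold for Menin, and UTX MI-503 at them from 7.11-fold at Eif4e1b/Tspan17 to 27.9-fold at Plag1/Chchd7.

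Plag1/Chchd7 (chr4:3938502-3939118) was the site still overlapped in Menin MI-503. Plag1 encodes a zinc finger transcription factor and Chchd7 a small mitochondrial protein. Menin DMSO reached 139 fragments there, 35.5-fold.

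High UTX MI-503 values lay at other pairs. Fbh1, a DNA helicase gene, and Ankrd16 had 37.7-fold UTX MI-503 over 2 Menin peaks of 17.0-fold and 3.35-fold. Rab37, a small GTPase gene, and Slc9a3r1 had 36.9-fold UTX in MI-503, against 7.37-fold in DMSO. Clk2, a kinase of splicing factors, and Scamp3 had 36.2-fold UTX MI-503 and 9.31-fold Menin. Cdca2, a mitotic phosphatase regulator, and Kctd9 had 34.5-fold UTX MI-503 over Menin peaks of 6.71-fold and 5.71-fold.

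The 29 paired sites with UTX in DMSO all had it in MI-503, at higher fold. UTX ranged from 13.8-fold to 41.6-fold in MI-503 (median 22.7), against 4.71-fold to 9.81-fold in DMSO (median 7.37). The ratio of MI-503 to DMSO fold ran from 1.65 to 5.64, with a median of 3.18. UTX pileups in DMSO were scaled in steps of 0.874, and nearly all those in MI-503 were whole fragments. As 1 is added to pileup and background, the ratio also depends on this scaling and on depth. At paired sites with UTX in MI-503 alone, the MI-503 median was 12.0-fold. Jpt2/Cramp1l and Manf/Dock3, whose Manf encodes a neurotrophic factor of the endoplasmic reticulum, shared the highest DMSO value, 9.81-fold, with 30.1-fold and 31.2-fold in MI-503. Mrpl37, a mitochondrial ribosomal protein gene, and Cyb5rl had 21.9-fold in MI-503, against 9.68-fold in DMSO. Cdr2/Mfsd13b, with 3 CCAAT matches between the starts, had 19.7-fold in MI-503, against 8.63-fold in DMSO, and Mrps12/Sars2 had 21.0-fold against 8.21-fold. Menin DMSO at these last pairs was 4.70-fold and 4.58-fold, below the median of paired sites.

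The 102 paired sites without UTX in MI-503 were weaker for Menin, with a median of 24 fragments and 4.98-fold, against 37 fragments and 7.31-fold where UTX was present. Their highest was Atp6v1a/Naa50, a proton pump subunit gene and an N-terminal acetyltransferase gene, at 11.1-fold with 36 fragments. Zfp78/Zfp28, a pair of zinc finger genes, had 10.8-fold with 54 fragments, and Pacs1/Sf3b2, with the splicing factor gene Sf3b2, 10.6-fold with 43 fragments. Rnf123/Mst1 had 10.1-fold and Sipa1/Pcnx3 9.45-fold.

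Of 14 well-known head-to-head pairs, 11 had a paired Menin peak and all 11 carried UTX MI-503; over all opposite-strand pairs Menin was at 73.5%, and over opposite-strand Menin peaks UTX MI-503 was at 93.3%. Col4a1/Col4a2, Nthl1/Tsc2 and Tbp/Psmb1 had none, although Tbp, the TATA-binding protein gene, had a Menin peak of its own. Atm, the DNA damage kinase gene, and Npat, a histone transcription coactivator gene, start 61 bp apart and had 17.6-fold Menin and 30.6-fold UTX MI-503. Hspd1/Hspe1, for the mitochondrial chaperonins, had 12.1-fold and 12.0-fold. Ppat/Paics, for purine synthesis, had 10.0-fold and 16.3-fold, and Mcm4/Prkdc 9.06-fold and 20.3-fold. Psmb9/Tap1, for antigen processing, had 7.78-fold and 9.30-fold. Surf1/Surf2, Sirt3/Psmd13 and Wrap53/Trp53 were among the weaker, at 5.32-fold, 4.73-fold and 4.65-fold for Menin and 8.21-fold, 11.5-fold and 6.02-fold for UTX MI-503. The Menin summit at Wrap53/Trp53 lay outside the starts, which are 98 bp apart, at 879 bp and 977 bp from them.

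Gene lists are described by how many members had Menin at a boundary, beside 32.4% of all 20665 protein-coding genes. The number with Menin at a paired site is given beside 10.5%. Apart from DNA repair and the MLL complexes, lists were drawn by gene symbol. Of 30 DNA repair genes, 26 (86.7%) had Menin and 16 lay at a paired site. Besides Atm these included Xpc, the damage sensor of nucleotide excision repair, which with Lsm3 had 21.7-fold Menin and 11.1-fold UTX MI-503. Xrcc3, a gene of homologous recombination, with Zfyve21 had 11.1-fold Menin, and UTX at 33.9-fold in MI-503, against 8.35-fold in DMSO. Palb2/Dctn5 had 9.59-fold Menin and 15.7-fold UTX MI-503, and Brca1/Nbr1 had 9.36-fold and 15.3-fold at a summit 796 bp and 644 bp from the starts. Rffl/Rad51d had 7.27-fold Menin and no UTX MI-503 peak.

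Of 78 mitochondrial ribosomal protein genes, 50 (64.1%) had Menin and 29 (37.2%) lay at a paired site. Of 85 cytosolic ribosomal protein genes, 66 (77.6%) had Menin, but 15 (17.6%) lay at a paired site. Mrpl32/Psma2, joining a mitochondrial ribosome and a proteasome gene, had 8.80-fold Menin and 27.6-fold UTX MI-503. Rps18/Vps52 had 11.3-fold and 20.2-fold, and Rpl36al/Mgat2 4.07-fold and 31.7-fold. Micos13/Rpl36, at 4.24-fold Menin, and Ndufs6/Mrpl36, at 4.77-fold, had no UTX MI-503 peak. Of 90 genes with Nduf, Cox or Atp5 symbols, 27 lay at a paired site. That list includes assembly factor and ATP synthase genes beside respiratory chain subunits. Of 34 aminoacyl-tRNA synthetase genes 11 lay at a paired site, and of 48 proteasome genes 9. Ears2/Ubfd1, with the mitochondrial glutamyl-tRNA synthetase gene, had 10.6-fold Menin and 18.6-fold UTX MI-503. Wdr4/Ndufv3, with a complex I subunit gene, had 10.1-fold and 14.5-fold. Fam126b/Ndufb3 had 4.93-fold Menin and no UTX MI-503 peak.

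Histone genes were paired in 21 of 75 cases, out of 35 with Menin, and several of these lie head to head within clusters. H2ac11/H2bc11 had 6.84-fold Menin and 14.8-fold UTX MI-503, H2bc7/H2ac7 6.34-fold and 12.6-fold, and H2ac22/H2bc22 4.65-fold and 16.8-fold. The peak at H2bc9/H3c7 had 7.84-fold Menin and no UTX MI-503 peak over it. Zfp genes (28 of 388, 7.22%) and genes with Slc symbols (28 of 362, 7.73%) were at paired sites below the share of all genes, and Tmem genes (43 of 231, 18.6%) above it.

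Genes of the MLL complexes themselves lay at 5 paired sites, out of 13 on these chromosomes. The peak at Kmt2d, encoding MLL4, lay 151 bp from the end of that gene and 10 bp from the start of Prkag1 (chr15:98831369-98831697), with 10.9-fold Menin and 31.2-fold UTX MI-503. Ash2l/Kcnu1 had 6.88-fold and 17.0-fold, Kmt2b/Zbtb32 5.94-fold and 6.02-fold, and Pagr1a/Prrt2 4.79-fold and 10.9-fold. At Kmt2b/Zbtb32 the peaks shared only their edges, with Menin at chr7:30588812-30589208 and UTX MI-503 at chr7:30589191-30589567. At Men1 itself the peak lay at the end of the gene, where Map4k2 starts, with 5.52-fold Menin (chr19:6340823-6341190), and it shared no base with a UTX MI-503 peak.

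Of the 24 peaks near 3 genes, Tomm6/Frs3/Prickle4 was the highest, with 20.4-fold Menin and 15.0-fold UTX MI-503, and Senp3/Tnfsf13/Tnfsfm13 had 11.0-fold and 12.4-fold. The 3 peaks at 2 ends included Nkiras2/Zfp385c, at 9.36-fold with 8.21-fold UTX MI-503, and Hcfc1r1/Tnfrsf12a, at 3.99-fold with none. At the edge of the rule, Srsf2/Mfsd11 (997 bp from the farther gene, 12.8-fold) and Ncor1/Pigl (992 bp, 5.35-fold) were just inside, with 1 pair that holds a predicted gene, and Polr2a/Slc35g3 (1004 bp, 7.24-fold) and Traf7/Rab26 (1010 bp, 7.67-fold) just outside. UTX MI-503 overlapped each of these. By chromosome, paired peaks made up from 5.23% of Menin peaks on chromosome 18 to 15.1% on chromosome 7.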

How the data were processed

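Peak lists of 4 single libraries were used as the authors deposited them. Peaks were called with MACS2 for mouse build mm10, per the submitters' processing notes. These give no version, aligner or read filter. The deposited fold is the ratio of summit pileup plus 1 to local background plus 1, the −log10 columns, also deposited, hold p-value and q-value, and the deposited score follows −log10 q. Peak names in the authors' lists pair both Menin libraries with 1 input and both UTX libraries with another. Total depth is unknown. Whole-fragment pileups were recovered from fold and −log10 p (agreement within 0.1%) for 100% of the Menin peaks in DMSO and 99.0% of the UTX peaks in MI-503.

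The members and gene lists were chosen with earlier results of these data known. Genes, starts and ends came from RefSeq (GRCm38.p6, the assembly of mm10); strand came from its promoter table, which matched 16457 of 20665 genes. Where peaks overlapped several UTX peaks, the highest fold was kept. Intervals are exact Clopper-Pearson and, for differences, Newcombe, at 95%; no p-value was computed. Genes named are, by rule, the 10 highest paired peaks by Menin −log10 q, the 10 highest without UTX MI-503, the 10 highest by UTX MI-503 fold, up to 10 with UTX DMSO and up to 10 near 3 genes, the 5 highest of each arrangement, list members in list order (up to 10 a list), and the 3 peaks on each side of the 1 kb limit; predicted genes are counted, not named, and a few genes that it takes are not reported here. The alternatives concerned the window, q thresholds, overlap, gene set and starts alone. The code was checked on simulated data (Python 3.11.15, numpy 2.4.6, scipy 1.17.1, pandas 2.3.3, matplotlib 3.10.9).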

Additional observations from a re-analysis of the deposited data

Results flagged for a closer look

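Outside chromosomes 1 to 19, 198 Menin DMSO peaks lay on chromosome X, which the comparisons above did not use. Of them, 18 had a summit within 1 kb of 2 or more genes. Their Menin fold ran from 3.99 to 19.8, and UTX MI-503 overlapped 12 of the 18. On chromosomes 1 to 19 it overlapped 91.4% of paired peaks and 66.5% of all Menin DMSO peaks. The share over all 198 peaks of chromosome X was not counted.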

How the results depend on the processing

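No paired analysis was possible because each condition had 1 library. The number of paired peaks, 1192, was 893 with a window of 500 bp, 1594 with 2 kb, 717 with starts alone and 620 in the upper part of Menin −log10 q. The UTX MI-503 share of 91.4% was 89.4% with 2 kb, 89.1% with a UTX −log10 q of at least 5, 84.7% with the UTX summit inside the Menin peak, 93.2% with starts alone, 97.7% in the upper part of Menin −log10 q, and 72.1% with 50% of each peak shared. Under that last definition the excess over single-gene peaks was 1.53 points (−1.37 to 4.32), and in the upper part of Menin −log10 q it was 2.22 points (0.55 to 3.49). Within 4 equal bins of Menin −log10 q it was 11.6, 3.39, 2.17 and 2.31 points, and within 4 bins of width 10.4, 1.21, 3.06 and 1.84 points. With 1 peak per set of genes it was 5.27 points, and with opposite-strand starts against 1 start 5.49 points; these 2 settings were chosen after seeing the data. No setting reversed it. The UTX DMSO share of 2.43% was 0.671% at 50% of both peaks and 3.87% in the upper part of Menin −log10 q. Strand was unknown for 286 paired peaks, and with unknown depth no limit on undetected peaks was set.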
